A study of Homo sapiens with 6 samples.

Results

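The alkaline phosphatases are surface enzymes encoded by 4 human genes, ALPI, ALPP, ALPG (formerly ALPPL2) and ALPL, and their levels were examined in cells labelled as a gastric cancer line, with and without depletion of the RNA demethylase FTO. All 4 genes were found by identifier among the 58174 genes of the deposited table. The family was chosen by its measured values in this same contrast, so the levels and ratios of its members are given as a description, with no test. AGS is an established line from a human gastric adenocarcinoma. The cells received a negative control siRNA (si-NC) or an siRNA against FTO (si-FTO), with 3 libraries of total RNA in each group. The labels add a genotype to each group: si-NC is given as wild type, and si-FTO as FTO-/-, which is not what an siRNA makes, and the values could not settle which description holds. The table holds 1 mean per group of TPM (reads assigned to a transcript per transcript length, scaled to a fixed total). Neither the depth nor the spread between libraries can therefore be computed from the values used here. The authors' own test columns are not used, and no difference below is set against replicate error.

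Alkaline phosphatases remove phosphate groups from a wide range of substrates outside the cell. They work as dimers, need zinc in the active site, and are held on the outer face of the plasma membrane by a glycosylphosphatidylinositol (GPI) anchor. ALPI is the enzyme of the intestinal brush border, ALPP that of the placenta and ALPG that of germ cells, whereas ALPL is the tissue-nonspecific enzyme of bone, liver and kidney, where it hydrolyses pyrophosphate and pyridoxal phosphate.

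FTO itself, the target of the siRNA, was examined first as a check of the labels. Its mean level was 33.1 TPM in si-NC against 7.27 TPM in si-FTO. On the scale used throughout, the log2 ratio of (mean TPM + 1) of si-FTO over si-NC, this is −2.05. The depleted gene was therefore lower in the group labelled as depleted.

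The intestinal gene ALPI (ENSG00000163295) was listed at 0 in si-NC and reached 1178 TPM in si-FTO. This was a log2 ratio of 10.20, and ALPI ranked number 107 by level among all genes of the si-FTO column. No fold is given against a group listed at 0. The placental gene ALPP (ENSG00000163283) had a mean of 0.0147 TPM in si-NC against 819 TPM in si-FTO, giving a log2 ratio of 9.66. ALPP ranked number 157 by level in si-FTO. The germ cell gene ALPG (ENSG00000163286) had a mean of 0.0174 TPM in si-NC against 43.0 TPM in si-FTO, giving a log2 ratio of 5.44. In all 3 genes, the si-NC mean was close to 0.

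The tissue-nonspecific gene ALPL (ENSG00000162551) went the opposite way. Its mean was 11.97 TPM in si-NC against 0.448 TPM in si-FTO, giving a log2 ratio of −3.16. Without the pseudocount, the si-NC mean was 26.7 times the si-FTO mean. ALPL held 99.7% of the summed TPM of the family in si-NC, but 0.0219% in si-FTO.

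A gene was compared when its mean was at least 0.5 TPM in at least 1 group, and called higher or lower at a log2 ratio of 1 or more in size. All 4 members passed that filter, each of them through the group in which it was high. Of the 4, 3 were called higher in si-FTO, where 11.4% of all 20493 genes compared were called higher, and 1 was called lower, where 17.0% were called lower. Nothing is read from these shares, because the same contrast chose the members. They also move with the scaling: 2340 genes were called higher and 3492 lower without scaling, 2618 and 3164 after median-ratio scaling, and 2803 and 2902 after quantile normalization. The calls of the 4 members were the same with both scalings. Over all genes compared, the log2 ratio had a median of −0.20, which was −0.09 after median-ratio scaling and −0.03 after quantile normalization, and the list medians below are to be read against that shift.

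The order of levels within the family changed between the groups. In si-NC it was ALPL, then ALPG and ALPP, both under 0.05 TPM, then ALPI. In si-FTO it was ALPI, ALPP, ALPG and ALPL. ALPI stood 1.44 times above ALPP in si-FTO, and whether that gap exceeds the error between libraries is unknown. ALPP stood 19.0 times above ALPG. The summed level of the 4 genes was 12.001 TPM in si-NC against 2041 TPM in si-FTO, which is 0.204% of all TPM in si-FTO.

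**Figure D1:**
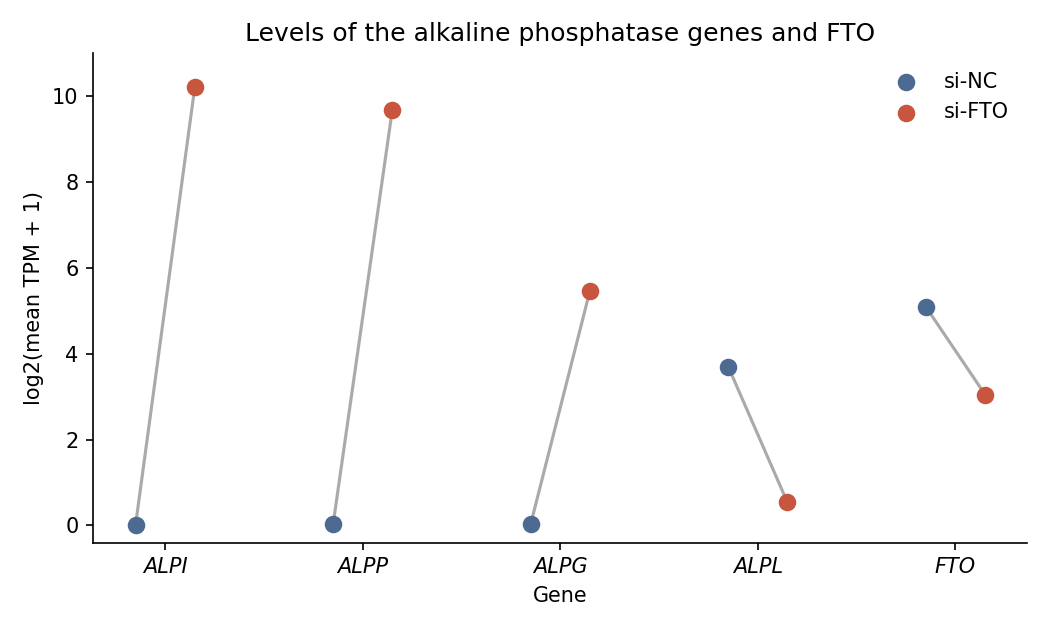
Levels of the 4 alkaline phosphatase genes and FTO as log2(mean TPM + 1), with 1 point for each group mean and a line joining the groups; no error can be drawn from 1 mean per group. ALPI, ALPP and ALPG rise from about 0 in si-NC, while ALPL and FTO are lower in si-FTO.

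ALPI, ALPP and ALPG lie side by side on chromosome 2 and are close copies of each other, so reads can be shared among them. In the GRCh37 coding sequences, ALPP and ALPG were identical at 97.8% of 1596 aligned bases, with an uninterrupted shared run of 339 bases. ALPI was 89.7% identical to ALPP and 89.5% identical to ALPG, with longest shared runs of 75 and 60 bases. ALPL, on chromosome 1, was 69.6% identical to ALPI, and its longest run in common with any of the other members was 16 bases. The encoded proteins, of 524 to 535 residues, had 97.0% identical residues between ALPP and ALPG, 87.5% between ALPI and ALPG, 87.1% between ALPI and ALPP, and 55.5% to 56.6% between ALPL and each of the others.

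The stretch of 90 coding bases in which the 3 copies differ most is shown as an example of how far apart they are. It lies in exon 10 of each gene, on the plus strand of GRCh37, at chr2:233323356-233323445 in ALPI, chr2:233245975-233246064 in ALPP and chr2:233274056-233274145 in ALPG. Capitals mark the 26 positions at which the 3 are not all alike.
ALPI: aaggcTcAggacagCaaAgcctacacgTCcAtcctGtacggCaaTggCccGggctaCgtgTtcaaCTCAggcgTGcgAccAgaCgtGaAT
ALPP: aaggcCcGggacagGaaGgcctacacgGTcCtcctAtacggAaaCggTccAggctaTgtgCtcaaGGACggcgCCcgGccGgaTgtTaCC
ALPG: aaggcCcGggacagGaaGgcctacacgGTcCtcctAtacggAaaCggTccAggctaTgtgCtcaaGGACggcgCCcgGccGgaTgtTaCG
ALPI differed from each of the others at 26 positions here, and ALPP differed from ALPG at 1.

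Read length is not given in the sources used here, so the sharing was counted over words of 4 lengths, on the sense strand. Of the 50-base words of the ALPI coding sequence, 2.48% also occurred in another member, and 97.5% in none. For ALPP the share was 46.9% and for ALPG 45.5%, which leaves 53.1% and 54.5% of their words in no other member. Over whole transcripts, the 50-base share was 1.19% for ALPI, 27.4% for ALPP and 29.3% for ALPG. At 100 coding bases it was 0% for ALPI, 25.2% for ALPP and 25.3% for ALPG, and over whole transcripts 0%, 14.3% and 15.8%. ALPL shared 0% at all 4 lengths. The values of ALPP and ALPG are therefore uncertain relative to each other, because the split of their common reads rests on the authors' quantification. The authors' methods name RSEM, which divides reads that map to several genes among them by a statistical model. The sum of the 3 genes can also move with that division, because their transcripts differ in length. The summed level of ALPI, ALPP and ALPG was 0.0321 TPM in si-NC against 2041 TPM in si-FTO, giving a log2 ratio of 10.95, of which ALPI held 57.7%, ALPP 40.2% and ALPG 2.11% in si-FTO.

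**Figure D2:**
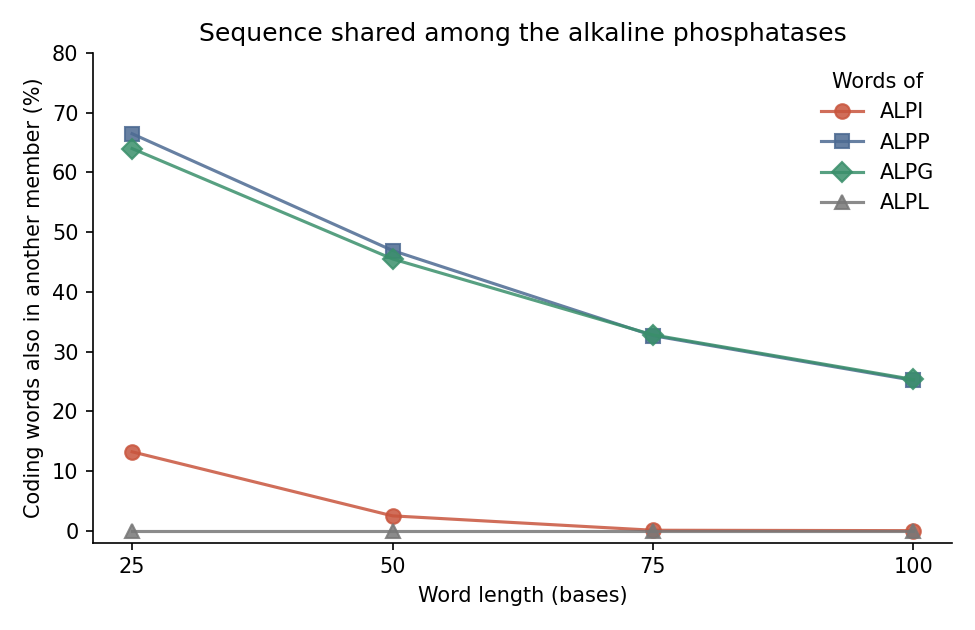
Share of the words of each member's coding sequence, in percent, that also occur in another member, against word length in bases, with 1 line for each gene. ALPP and ALPG share 46.9% and 45.5% of their words at 50 bases, ALPI 2.48% and ALPL 0%.

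The genes around the 3 copies were compared next. The stretch from ALPP to ALPI runs from 233243434 to 233325463 on chromosome 2 of GRCh37, and within it or 500 kb to either side 33 other genes are annotated. Of these, 30 were in the table and 14 were compared: 4 were called higher, 3 lower and 7 neither, with a median log2 ratio of −0.29. Over all genes compared, 11.4% were called higher and 17.0% lower. The 4 that were higher lay inside ALPP or up to 65240 bp beyond ALPI.

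ECEL1, a member of the endothelin-converting enzyme family, lies 19074 bp beyond ALPI, and was 4.91 TPM in si-NC against 475 TPM in si-FTO. PRSS56, a trypsin-like serine protease, lies 59635 bp beyond ALPI, and was 0.0234 TPM in si-NC against 514 TPM in si-FTO. CHRND, the delta subunit of the muscle acetylcholine receptor, follows PRSS56, and was listed at 0 in si-NC, against 3.82 TPM in si-FTO. The fourth was ENSG00000224516, a long noncoding RNA on the opposite strand inside ALPP, listed at 0 in si-NC, against 4.64 TPM in si-FTO. The library kit keeps strand, but whether the quantification used it is not given in the sources used here, so reads of ALPP and of this antisense gene cannot be told apart.

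On both sides the pattern ended within a short distance. Upstream, DIS3L2, which encodes a 3′ to 5′ exoribonuclease, ends 34374 bp before ALPP and was 14.98 TPM in si-NC against 16.8 TPM in si-FTO. Downstream, CHRNG, the gamma subunit of the same receptor, was 0.149 and 0.397 TPM and so was not compared. TIGD1, a gene derived from a transposable element, lies 83130 bp beyond ALPI and went the other way, from 12.8 TPM in si-NC to 1.24 TPM in si-FTO. EIF4E2, which encodes a cap-binding protein, was 114 and 89.3 TPM. EFHD1, which encodes a calcium-binding protein of mitochondria, was 64.9 TPM in si-NC against 8.12 TPM in si-FTO, and NPPC, the precursor of C-type natriuretic peptide, was 8.12 TPM in si-NC but listed at 0 in si-FTO.

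With the compared genes placed in order of their start, ALPP, ENSG00000224516, ALPG, ALPI, ECEL1, PRSS56 and CHRND followed each other as 7 genes called higher over 157944 bp. This run was singled out after its values were seen. Among the 19994 compared genes with an annotated position, 1626 runs of 1 or more neighbours called higher were counted, of which 7 had at least 7 genes, this run included, and the longest had 10. Runs of this length are thus not particular to the locus, and nothing more is read from the count. The genes annotated between them that are in the table, ECEL1P2, ECEL1P1, ENSG00000237087 and DIS3L2P1, were under 0.5 TPM in both groups and so were not compared, and all of the 7 but ECEL1 passed the filter through si-FTO alone.

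ALPL lies on chromosome 1 of GRCh37 from 21835890 to 21904903. Of 43 other genes annotated over it or within 500 kb to either side, 31 were in the table and 11 were compared: 2 were called higher, 1 lower and 8 neither, with a median log2 ratio of 0.08, where 28.5% of all genes compared were called in either direction. NBPF3 ends 24392 bp before ALPL and was 21.8 TPM in si-NC against 5.36 TPM in si-FTO. RAP1GAP, which encodes an inhibitor of the small GTPase Rap1, lies 17811 bp beyond ALPL and was 7.63 and 12.7 TPM. ECE1, which encodes endothelin-converting enzyme, was 44.3 TPM in si-NC against 109 TPM in si-FTO, and HSPG2, which encodes the basement membrane proteoglycan perlecan, was 6.56 TPM in si-NC against 65.7 TPM in si-FTO. ALPL thus stood between a gene that was lower and a gene that was called neither.

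**Figure D3:**
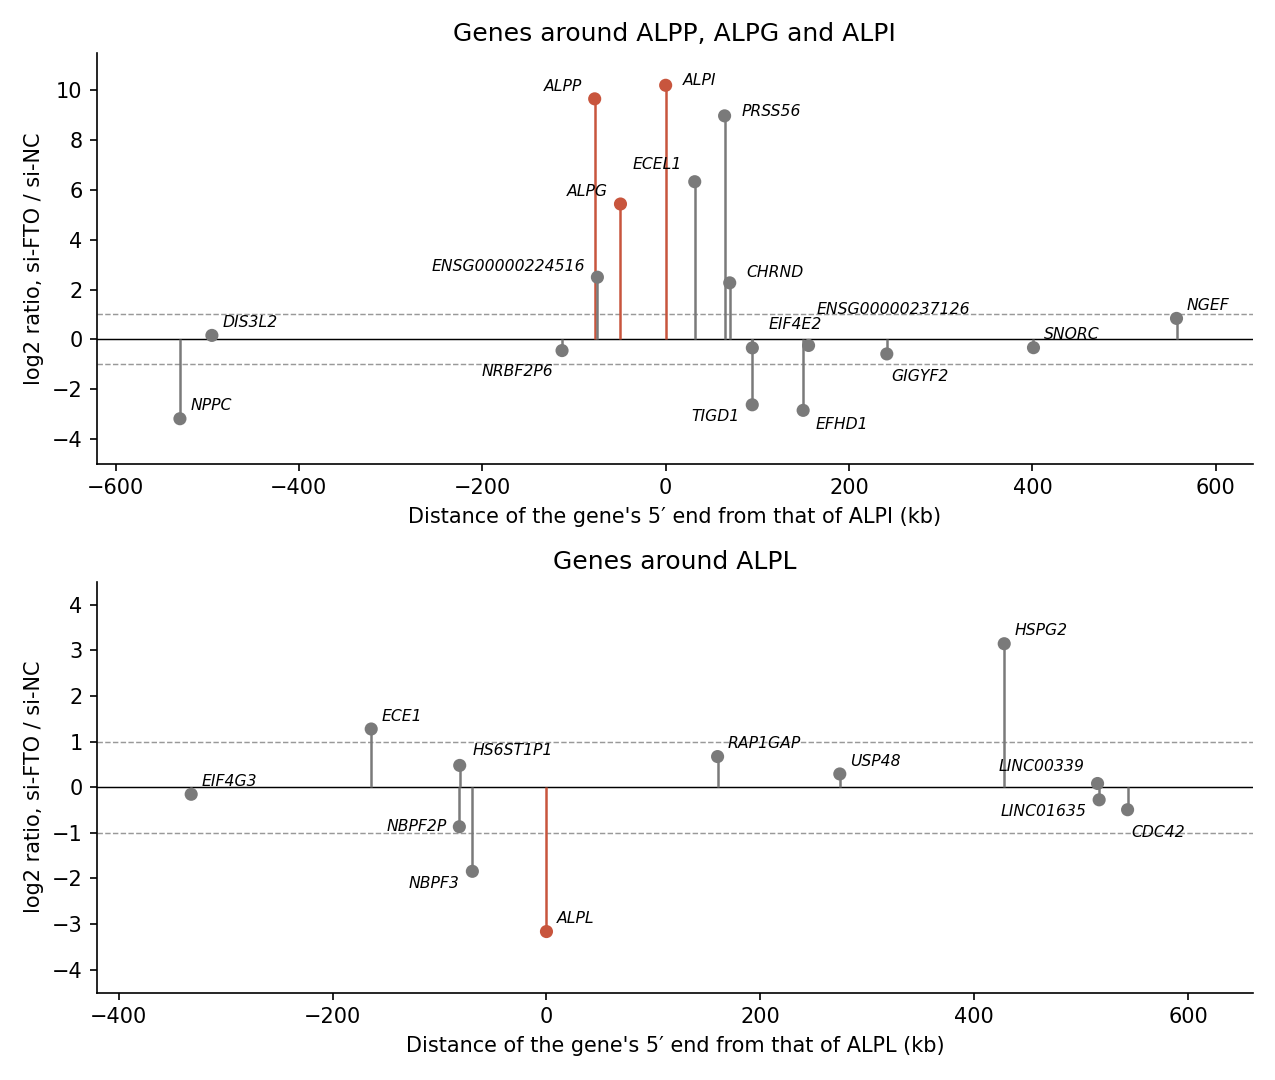
Log2 ratio of mean TPM, si-FTO over si-NC, of the genes compared around ALPP, ALPG and ALPI (upper panel) and around ALPL (lower panel), against the distance in kb of each gene's 5′ end from that of ALPI or ALPL. Members are in red, other genes in grey, and dashed lines mark log2 ratios of 1 and −1. The upper panel shows 7 neighbouring genes above the dashed line, with NPPC, TIGD1 and EFHD1 below −1 on either side of them.

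The 3 copies also share promoter sequence. RefSeq windows of 300 bases around the start site (table of GRCh38.p14) were found for all 4 genes, 1 each for ALPI, ALPP and ALPG and 3 for ALPL. The windows of ALPP and ALPG were identical at 86.7% of aligned bases, those of ALPG and ALPI at 75.8%, and those of ALPP and ALPI at 73.6%. The 170 bases before the start site are shown for these 3 genes, which are close copies of each other. Whether these sequences bear on the levels was not tested. A full match placed them on the plus strand of GRCh37 at chr2:233320693-233320862 for ALPI, chr2:233243291-233243460 for ALPP and chr2:233271384-233271553 for ALPG. Capitals mark the runs of 10 or more bases common to all 3 windows.
ALPI: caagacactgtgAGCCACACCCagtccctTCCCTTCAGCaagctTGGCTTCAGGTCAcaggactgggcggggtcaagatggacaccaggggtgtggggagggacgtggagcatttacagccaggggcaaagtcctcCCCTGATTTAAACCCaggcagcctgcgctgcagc
ALPP: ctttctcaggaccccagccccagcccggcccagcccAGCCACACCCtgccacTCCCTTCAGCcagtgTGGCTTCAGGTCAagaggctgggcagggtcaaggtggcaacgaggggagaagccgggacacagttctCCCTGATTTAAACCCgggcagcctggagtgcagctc
ALPG: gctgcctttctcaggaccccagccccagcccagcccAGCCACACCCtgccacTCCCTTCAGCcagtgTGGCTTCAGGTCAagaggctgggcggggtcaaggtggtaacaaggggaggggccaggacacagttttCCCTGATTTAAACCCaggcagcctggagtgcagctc
The longest common run, CCCTGATTTAAACCC, and the next, TGGCTTCAGGTCA, were each found in 3 of 34796 distinct RefSeq promoter windows on either strand, which are the windows of these 3 genes. The runs were picked because all 3 windows hold them, so a count of at least 3 was fixed beforehand. Such sharing is a property of copied genes, and nothing more is read from it.

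Shorter motifs were searched on both strands after the windows had been seen. TTTAAA, which lies inside the longest common run, began 28 bases before the start site in ALPI and 30 bases before it in ALPP and in ALPG, and 12.2% of all windows hold it. AGGTCA, which lies inside the next run, began 119 bases before the start site in ALPI and 96 bases before it in ALPP and in ALPG, and 13.8% of all windows hold it. GGGCGG was found in the windows of ALPI and ALPG but not in that of ALPP, and 44.9% of all windows hold it. TATAAA was in none of these 3 windows and in 1 of the 3 windows of ALPL, and 11.6% of all windows hold it. These are matches of letters and not measured sites.

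For each member, the 5 genes nearest to it in both means were found by Euclidean distance on log2(mean TPM + 1), over the 2 group means and so with no information on libraries. Nearest to ALPI were S100A6, ALPP, TM4SF1, PRSS56 and A2M. A2M, which encodes the protease inhibitor alpha-2-macroglobulin, was 0.0135 TPM in si-NC against 3394 TPM in si-FTO. S100A6, which encodes a calcium-binding protein, was 0.154 TPM in si-NC against 1021 TPM in si-FTO. ALPP had S100A6, ALPI, TM4SF1, PRSS56 and FOLR1, so that ALPI and ALPP were each the second nearest gene of the other. FOLR1, the GPI-anchored folate receptor alpha, was 0.602 and 420 TPM. ALPG had SLC22A3, CDH5, C4BPB, GDA and P2RY6, and of these SLC22A3, an organic cation transporter, was closest, at 0.0131 and 43.2 TPM. ALPL had GLIPR2, ENSG00000283765, ENO1P1, TMEM47 and SERTAD4, with GLIPR2 at 11.8 TPM in si-NC against 0.455 TPM in si-FTO.

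Genes needed to make an alkaline phosphatase on the cell surface were then described. For the synthesis, attachment and remodelling of the GPI anchor, all 30 genes listed were compared: 2 were called higher, 1 lower and 27 neither, with a median of −0.35 and a summed level of 1126 TPM in si-NC against 1154 TPM in si-FTO. The highest levels were those of 2 subunits of the transamidase that attaches the anchor, PIGS in si-NC, at 129 and 102 TPM, and GPAA1 in si-FTO, at 111 and 170 TPM. PGAP4, which adds a sugar to the anchor, was 25.3 TPM in si-NC but listed at 0 in si-FTO. PIGB, a mannosyltransferase, was 8.32 and 21.8 TPM. DPM3, the other gene called higher, was 75.2 and 156 TPM, a log2 ratio of 1.04 that was 0.997 after quantile normalization, just under the threshold. Over all genes compared, 28.5% were called in either direction.

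Of 40 other GPI-anchored proteins, 39 were matched and 32 compared: 19 were called higher, 7 lower and 6 neither, where 11.4% of all genes compared were called higher and 17.0% lower. Their median was 1.32, against −0.20 over all genes compared. Their summed level was 522 TPM in si-NC against 3349 TPM in si-FTO. This list, like the others, was chosen with earlier results of these data known, so nothing is read from its shares or median. Some genes, such as PRSS21 and MSLN, passed the filter through si-FTO alone, and others, such as GPC3 and GPC4, through si-NC alone. CD59, which protects cells from complement, was 54.2 TPM in si-NC against 473 TPM in si-FTO. FOLR1 had the largest rise of the list on this scale, with a log2 ratio of 8.04. GPC3, a heparan sulfate proteoglycan, was 32.8 TPM in si-NC but listed at 0 in si-FTO, and the related GPC4 was 28.9 TPM in si-NC but listed at 0 in si-FTO. Like the alkaline phosphatases, these surface proteins included genes called in each direction.

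Zinc transporters that serve the secretory pathway were listed together with the exporter SLC30A1. All 6 genes were compared and 1 was called higher, where 11.4% of all genes compared were called higher. Their median was −0.05, which was 0.07 after median-ratio scaling and 0.00067 after quantile normalization. SLC30A5, SLC30A6 and SLC30A7, the transporters that supply zinc to alkaline phosphatases in the early secretory pathway, were called neither, with si-NC means of 45.6, 16.9 and 10.4 TPM and si-FTO means of 42.0, 12.5 and 7.72 TPM. The gene called higher was SLC30A1, the zinc exporter of the plasma membrane, at 9.73 and 28.2 TPM, which does not load the secretory pathway.

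The other genes of the pathway of ALPL in mineralization were described next. Of 13 genes for phosphate and pyrophosphate handling and mineralization, 8 were compared, with 1 called higher, 2 lower and 5 neither, and a median of −0.18, where 28.5% of all genes compared were called in either direction. ENPP1, which makes the pyrophosphate that ALPL hydrolyses, was 21.2 TPM in si-NC against 0.222 TPM in si-FTO. ANKH, a membrane protein through which cells raise extracellular pyrophosphate, was 17.4 TPM in si-NC against 111 TPM in si-FTO. PHOSPHO1, a phosphatase of matrix vesicles, was 4.03 and 0.185 TPM. ALPL, ENPP1 and PHOSPHO1 were thus lower in si-FTO, while ANKH was higher.

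ALPL also acts on pyridoxal phosphate, the active form of vitamin B6. Of 5 genes for handling that vitamin, all 5 were compared, with a median of −0.21. Among them, 1 was called lower, where 17.0% of all genes compared were called lower. That gene was PDXP, the intracellular pyridoxal phosphate phosphatase, at 133 TPM in si-NC against 45.1 TPM in si-FTO. PDXK, the kinase that makes pyridoxal phosphate, was 39.7 and 65.0 TPM and was called neither.

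Among 16 acid phosphatases and ectonucleotidases, 10 were compared. Of these 10, 3 were called higher, 4 lower and 3 neither, where 11.4% of all genes compared were called higher and 17.0% lower. With a minimum of 5 TPM, 1 was called lower. The median of the list was −0.29, but 0.37 after median-ratio scaling, 0.18 after quantile normalization and 0.67 with that minimum. No direction is therefore given for the list. ACP1 had the highest level, at 106 and 126 TPM. ACP3, the prostatic acid phosphatase, was 1.15 TPM in si-NC against 19.7 TPM in si-FTO. NT5E, a GPI-anchored enzyme that makes adenosine, was 0.622 and 10.02 TPM. ENPP4, which hydrolyses nucleotides, was 4.75 TPM in si-NC but listed at 0 in si-FTO.

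**Figure D4:**
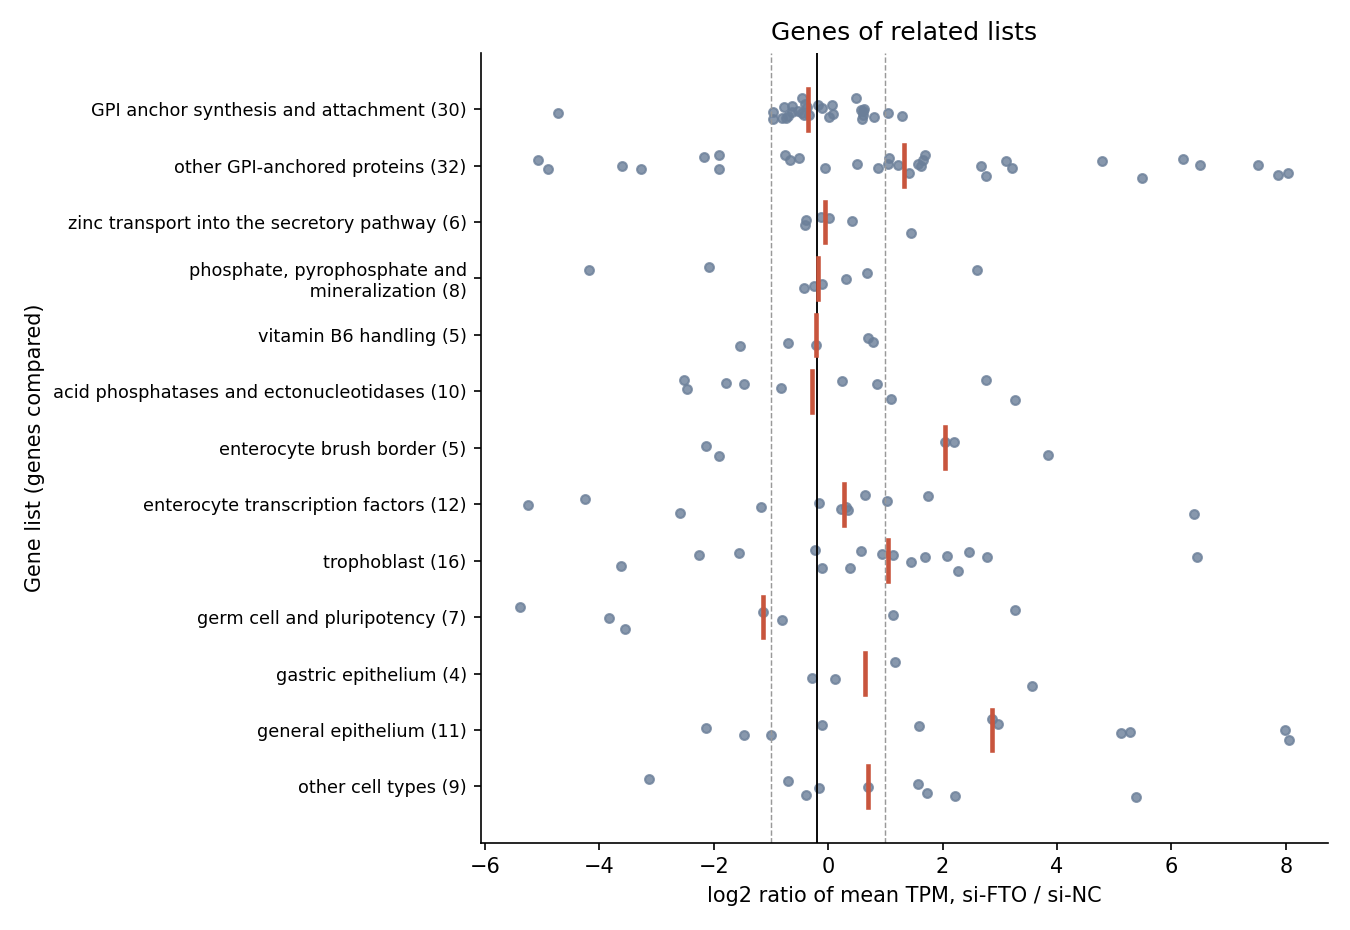
Log2 ratio of mean TPM, si-FTO over si-NC, of each gene compared in 13 lists, with 1 point for each gene, red bars at the list medians, a black line at the median of all genes compared (−0.20) and dashed lines at 1 and −1. The points are shifted vertically at random for legibility. Most anchor synthesis genes were called neither, and the list runs from −4.72 (PGAP4) to 1.29 (PIGB). Other GPI-anchored proteins spread from −5.08 to 8.04.

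Because each alkaline phosphatase is known from particular tissues, the markers of those tissues were examined, and their part in the levels of the members was not tested. In bulk RNA, fewer cells of a type and less RNA per cell cannot be told apart. Of 24 genes of the enterocyte brush border, where ALPI is normally found, 5 were compared, with 3 called higher and 2 lower. The shares over all genes compared were 11.4% higher and 17.0% lower. The list had a median of 2.05 and a summed level of 30.1 TPM in si-NC against 189 TPM in si-FTO. USH1C, a scaffold protein of microvilli, was the most abundant in si-FTO, at 11.6 TPM in si-NC against 179 TPM in si-FTO. VIL1, SI, FABP1, APOA4 and TMIGD1, which define that cell type, were listed at 0 in both groups. The median rests on few genes, and was 0.96 with a minimum of 5 TPM and 3.94 with a pseudocount of 0.1. The brush border enzyme DPP4 was 3.39 TPM in si-NC but listed at 0 in si-FTO.

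Of 15 transcription factors of the enterocyte lineage, 12 were compared, with a median of 0.27. Of these 12, 3 were called higher, 4 lower and 5 neither, against 11.4% higher and 17.0% lower over all genes compared. ELF3 was 0.115 TPM in si-NC against 93.3 TPM in si-FTO. GATA4 was 36.96 TPM and CDX2 18.1 TPM in si-NC, and both were listed at 0 in si-FTO. KLF5 was 12.4 and 43.8 TPM, and HNF4A was 0.0255 and 1.09 TPM, both called higher. CDX1 was listed at 0 in both groups. The summed level of the list was 151 and 220 TPM.

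Of 35 genes listed for trophoblast, the placental cells that carry ALPP, 16 were compared, with a median of 1.04. Of these 16, 8 were called higher, 3 lower and 5 neither, against 11.4% higher and 17.0% lower over all genes compared. The summed level of the list was 206 TPM in si-NC against 439 TPM in si-FTO. TFAP2A was the most abundant in si-FTO, at 28.6 and 142 TPM. INSL4, a placental peptide of the insulin family, was listed at 0 in si-NC, against 86.0 TPM in si-FTO. GATA3 went the other way, at 22.4 and 0.890 TPM. The median was 0.38 with a minimum of 5 TPM, where 4 genes were called higher, and 2.28 with a pseudocount of 0.1. CGB8, CSH1, ELF5, HSD3B1, PSG3 and VGLL1 were listed at 0 in both groups. Other genes of the list, among them GCM1, ERVW-1, CYP19A1, CGB5 and HLA-G, were under 0.5 TPM in both groups and were not compared.

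Of 16 genes of germ cells and pluripotency, 7 were compared, with a median of −1.13. Of these 7, 2 were called higher, 4 lower and 1 neither, against 11.4% higher and 17.0% lower over all genes compared. The summed level of the list was 75.2 TPM in si-NC against 29.2 TPM in si-FTO. LIN28B, an RNA-binding protein, was 41.2 TPM in si-NC against 0.00563 TPM in si-FTO. PRDM1, a transcriptional repressor, was 0.246 and 11.003 TPM. The median was −3.56 with a minimum of 5 TPM and −3.69 with a pseudocount of 0.1. NANOG, SOX17, DPPA3, DPPA4, DDX4, DAZL and LIN28A were listed at 0 in both groups.

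The labelled tissue was checked in the same way. Of 16 genes of the gastric epithelium, 4 were compared, with 2 called higher, 0 lower and 2 neither. The shares over all genes compared were 11.4% higher and 17.0% lower. The median was 0.64, but 2.001 with a pseudocount of 0.1 and 1.35 after quantile normalization. With a minimum of 5 TPM, which leaves 1 gene, it was 3.57. The summed level of the list was 2.88 TPM in si-NC against 33.8 TPM in si-FTO. MUC1, a mucin of many epithelia, was the most abundant in both, at 1.71 and 31.0 TPM. AGR2 was listed at 0 in si-NC, against 1.26 TPM in si-FTO. TFF1, GKN1, GKN2, PGC, GAST and SST were listed at 0 in both groups. MUC1 and AGR2 were thus higher in si-FTO. Of the 16 gastric genes, only 1 in si-NC and 2 in si-FTO reached 1 TPM, and 6 were at 0 in both groups.

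Genes of epithelia in general differed between the groups. Of 15, 11 were compared, with 7 called higher, 2 lower and 2 neither, against 11.4% higher and 17.0% lower over all genes compared. The median was 2.86, but 5.12 with a minimum of 5 TPM. The summed level of the list was 112 TPM in si-NC against 5336 TPM in si-FTO. The keratin gene KRT8 was 10.8 TPM in si-NC against 3139 TPM in si-FTO, and its partner KRT18 was 52.1 and 1851 TPM. CDH1, which encodes E-cadherin, was 3.67 and 0.685 TPM. Of 17 markers of blood, endothelial, fibroblast, liver and neuroendocrine cells, 16 were matched and 9 compared. Of these 9, 4 were called higher, 1 lower and 4 neither, against 11.4% higher and 17.0% lower over all genes compared. The median was 0.69, but 1.73 with a minimum of 5 TPM. With a pseudocount of 0.1 it was 1.81, and 3 genes were called lower. The summed level of these markers was 31.1 and 93.6 TPM. CDH5, a cadherin of endothelium, was 0.00827 and 40.9 TPM, whereas VWF, another endothelial gene, was 0.00493 and 0.0537 TPM. COL1A1, a collagen chain of fibroblasts, was 10.3 and 36.4 TPM, whereas its partner COL1A2 was 0.00982 TPM in si-NC but listed at 0 in si-FTO. SYP, a protein of synaptic vesicles, was 14.3 and 0.743 TPM, and the leukocyte gene PTPRC was listed at 0 in both groups. Several genes of the lists above had a level in si-NC but were at 0 in si-FTO, among them GATA4, CDX2 and GPC3, and also SOX2 at 13.2 TPM and KIT at 10.8 TPM in si-NC. Whether the cells of both groups were the same line was not tested. With 1 depleted group set against 1 control group, FTO depletion cannot be told apart from any other difference between the groups. This holds for every ratio given here.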

How the data were processed

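The authors deposited TPM for 58174 genes as 1 mean per group of 3 libraries. Their methods name mapping to hg19 with Bowtie and quantification with RSEM, whereas the submitters' processing notes name HISAT2 and hg19. Versions, annotation and read length are not given in the sources used here. Depth cannot be read from TPM and is unknown. The log2 ratio, p-value and q-value columns of the authors' own comparison were not used. A second deposited table of 7986 genes repeats the same means and was not used.

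A value of 0.0001 was read as 0. Log2 ratios of si-FTO over si-NC used a pseudocount of 1, a minimum mean of 0.5 TPM in at least 1 group and a threshold of 1 in size, with no test. Symbols came from the annotation of GRCh37, which matched 55726 identifiers, and from RefSeq synonyms. CD24 and PECAM1 were not matched. Named genes were the members, FTO, the genes of each list with the highest level or largest change, the 5 nearest genes and genes within 500 kb; others were picked once their values had been seen. The members and lists were chosen with earlier results of these data known. Alternatives were a pseudocount of 0.1, median-ratio scaling over genes of at least 10 TPM in both groups, quantile normalization, 0.0001 kept as a value, no filter, a minimum of 5 TPM and a threshold of 2. Coding sequences were read from GRCh37 (ALPI-201, ALPP-201, ALPG-201 and ALPL-204) and aligned globally, and promoters came from RefSeq. Python 3.11.15, numpy 2.4.6, pandas 2.3.3 and Biopython 1.88 were used, and the calculations were tested on simulated data.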

Additional observations from a re-analysis of the deposited data

How the results depend on the processing

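No paired analysis was possible because the table holds 1 mean per group, and leaving out each replicate and the replicate block were not run for the same reason. The direction and call of the 4 members were the same under all 7 alternatives, and median-ratio scaling and quantile normalization changed no member's ratio by 1.5 times or more. The sizes depend on the pseudocount, by its construction. With a pseudocount of 0.1 the log2 ratios were 13.52 for ALPI, 12.80 for ALPP, 8.52 for ALPG, −4.46 for ALPL and 13.91 for the sum of the 3 copies. With 0.0001 kept and no pseudocount they were 15.76 for ALPP, 11.27 for ALPG, −4.74 for ALPL and 15.95 for the sum; none is given for ALPI, whose si-NC value is the placeholder itself. The count of genes called higher was 976 at a log2 ratio of at least 2. The count called lower was 1241 at that threshold, 2254 with a minimum of 5 TPM and 5348 with 0.0001 kept and no pseudocount, against 5147 with a pseudocount of 0.1.

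With a pseudocount of 0.1, 2 anchor synthesis genes were called lower, 2 mineralization genes higher, 1 vitamin B6 gene higher and 3 genes of other cell types lower. With a minimum of 5 TPM, fewer genes were compared, and 1 mineralization gene was called lower, 1 acid phosphatase or ectonucleotidase lower, 1 brush border gene higher and 1 lower, 4 trophoblast genes higher, 1 gastric gene higher and 1 general epithelial gene lower. Of the neighbours on chromosome 2, an alternative chosen after seeing the data, 2 were called higher with that minimum. With quantile normalization, an alternative for the lists that was also chosen after seeing the data, 1 anchor synthesis gene was called higher. Under these settings and median-ratio scaling, the other list counts stayed within 1.5 times of those reported; other settings were not run for the lists.

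List medians also moved. With a pseudocount of 0.1 they were 3.94 for the brush border, 2.28 for trophoblast, −3.69 for germ cells, 2.001 for gastric genes and 1.81 for other cell types. With a minimum of 5 TPM, which leaves fewer genes, they were 0.67 for acid phosphatases and ectonucleotidases, 0.96 for the brush border, 0.38 for trophoblast, −3.56 for germ cells, 3.57 for gastric genes, 5.12 for general epithelium and 1.73 for other cell types. Median-ratio scaling gave 0.37 for acid phosphatases and ectonucleotidases, and quantile normalization 1.35 for gastric genes. The precision of a mean cannot be computed from the values used here.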
